A study of Mus musculus with 16 samples.

Results

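Ecel1, Colgalt2, Xpr1, Syne1, Best3, Dact1, Dnah1, Nfic and Otogl are 9 genes whose hippocampal RNA differed in the same direction between Kcna1 knockout and wild type mice on a standard diet and again on a ketogenic diet. They were chosen by the log2 fold changes of that pattern on each diet, and for lying on other chromosomes than Kcna1, which is on chromosome 6. They are 9 of the 49315 genes counted, and all 9 were among the 17469 genes with enough counts to be tested. Ecel1, Best3, Otogl, Dnah1, Syne1 and Xpr1 were higher in the knockout on both diets, and Dact1, Colgalt2 and Nfic were lower. Because these differences selected the genes, they are described here with their errors and without a test. The selection rule does not name diet averaged over the genotypes, variation among the knockout libraries of the same diet, or neighbouring and related genes. These were tested, although the 9 genes and the lists of related genes were chosen with earlier results of these data known.

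RNA was sequenced from the hippocampus of mice in 4 groups of 4 libraries: wild type on standard diet, Kcna1 knockout on standard diet, wild type on ketogenic diet, and Kcna1 knockout on ketogenic diet. The product of Kcna1 is part of a potassium channel that restrains axonal excitability, and mice that lack it have spontaneous seizures. A ketogenic diet is rich in fat and poor in carbohydrate and is used to reduce seizures. The kind of Kcna1 allele, the strain, age and sex of the mice, and the length of the diet are not given in the sources used here, so each group is known by genotype and diet alone.

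The 9 genes share no single pathway. Ecel1 encodes a membrane protein of the neprilysin family that neurons make after axonal injury. Best3 belongs to the bestrophin family of calcium-activated chloride channels, Xpr1 encodes a phosphate exporter of the plasma membrane, and Syne1 encodes nesprin-1, a very large protein that ties the nuclear envelope to the actin cytoskeleton. Dnah1 encodes a heavy chain of the inner dynein arm that moves cilia and flagella, and Otogl an extracellular glycoprotein known from the inner ear. Dact1 encodes a dishevelled-binding regulator of Wnt signalling that shapes dendrites, Colgalt2 an enzyme that adds galactose to collagen, and Nfic a transcription factor of the nuclear factor I family.

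The libraries held 13440230 to 22309504 counts. Kcna1, the targeted gene, ranged from 107 to 130.1 CPM, counts scaled by library size, in the 8 wild type libraries and from 43.4 to 47.2 CPM in 7 of the 8 knockout libraries. The library labelled knockout KC888LL, on the standard diet, held 82.0 CPM, so it went against its label in part, and each standard-diet genotype difference of the 9 genes is given below with and without it. Markers of pyramidal cells and of dentate granule cells had counts in all 16 libraries. The summed level of the 8 reactive astrocyte markers ranged from 373 to 493 CPM in wild type and from 377 to 2881 CPM in knockout libraries, with Lcn2 at 0 in some library. The 6 pyramidal cell markers summed to 1390 to 1516 CPM in wild type and 1135 to 1357 CPM in knockout on the standard diet, and to 1433 to 1681 and 1371 to 1609 CPM on the ketogenic diet. The 6 interneuron markers summed to 674 to 734 CPM in wild type and 734 to 894 CPM in knockout on the standard diet, and to 647 to 747 and 730.5 to 989.9 CPM on the ketogenic diet. The 5 striatal markers summed to 17.2 to 31.1 CPM in wild type and 32.3 to 39.1 CPM in knockout with standard feeding, and to 18.4 to 20.01 and 19.97 to 43.4 CPM with ketogenic feeding. Sums of the 8 oligodendrocyte markers were 4045 to 6257 and 5032 to 5526 CPM with standard feeding, and 3341 to 4232 and 1930 to 3624 CPM with ketogenic feeding. In bulk tissue, fewer cells of a type and less RNA per cell cannot be told apart, and the part of these marker shifts in the differences of the 9 genes was not tested.

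Of the 9 genes, 4 had genotype groups that did not overlap on either diet (0.269% of all tested genes), namely Xpr1, Dact1, Dnah1 and Nfic. The promoters of Xpr1, Dact1 and Dnah1 are shown because they belong to these 4 and lie wholly before the annotated gene, so that genes that were higher and one that was lower can be read side by side. Each is the run of 250 bases before the start site in RefSeq (GRCm38.p6), 5′ to 3′ on the strand of the gene, at chr1:155417445-155417694 (minus), chr12:71309634-71309883 (plus) and chr14:31323897-31324146 (minus) in that order. The window of Dnah1 also holds part of Gm49217 on the opposite strand. Capitals mark the core motif of the nuclear factor I family, the family of Nfic.
Xpr1: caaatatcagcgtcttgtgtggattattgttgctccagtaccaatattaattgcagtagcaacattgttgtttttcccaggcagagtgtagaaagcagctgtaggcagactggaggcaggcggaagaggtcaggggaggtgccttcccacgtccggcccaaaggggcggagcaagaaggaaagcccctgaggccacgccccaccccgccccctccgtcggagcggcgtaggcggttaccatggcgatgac
Dact1: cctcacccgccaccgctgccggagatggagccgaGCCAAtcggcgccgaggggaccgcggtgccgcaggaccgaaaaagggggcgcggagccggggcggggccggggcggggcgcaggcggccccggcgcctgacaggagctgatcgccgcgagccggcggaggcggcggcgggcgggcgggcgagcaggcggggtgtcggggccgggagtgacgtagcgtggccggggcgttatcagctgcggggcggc
Dnah1: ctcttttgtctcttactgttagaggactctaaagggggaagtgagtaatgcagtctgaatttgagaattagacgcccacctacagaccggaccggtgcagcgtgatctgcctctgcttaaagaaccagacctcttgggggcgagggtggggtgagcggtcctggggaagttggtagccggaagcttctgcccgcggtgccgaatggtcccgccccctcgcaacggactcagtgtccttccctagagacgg

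Promoters of 6 of the 9 genes, 8 windows in all, were matched in RefSeq. Colgalt2, Best3 and Otogl had no entry. Both strands were searched for the nuclear factor I core motif TTGGC and the palindromic full site built of a pair of it, the cyclic AMP response element TGACGTCA, the AP-1 site TGANTCA, the TATA box TATAAA and the EGR site GCGTGGGCG. A full site also contains the core motif. The core motif was found in 1 of the 8 windows, that of Dact1, 216 to 212 bases before the start and on the minus strand, whereas 41.5% of 32851 promoters of the same length held it. A TATA box in the second of 3 Syne1 promoters was the only other match, against 12.4% of promoters with that motif. The remaining motifs occurred in 0.0365% (full site), 1.55% (cyclic AMP response element), 6.75% (AP-1) and 0.536% (EGR) of promoters. The Dact1 window was 80.4% G and C, against 57.6% for both Xpr1 and Dnah1 and a median of 52.4% over all promoters. No motif among the 6 searched was shared by the 6 genes with a window, and a missing match says only that these letters are not in these windows.

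Ecel1 showed the largest knockout difference of the 9 genes and also the widest spread. Standard feeding gave levels of 3.96, 4.51, 6.95 and 8.48 CPM in wild type and 6.76, 14.9, 21.0 and 34.6 CPM in knockout libraries. Ketogenic feeding gave levels of 1.503, 1.62, 1.89 and 3.15 CPM in wild type and 3.29, 7.34, 15.4 and 16.5 CPM in knockout libraries. The groups overlapped on the standard diet, where the library labelled knockout KC888LL, at 6.76 CPM, lay inside the wild type range, and did not overlap on the ketogenic diet. Fitted log2 fold changes of knockout over wild type were 1.70 ± 0.53 (SE) with standard feeding, a 3.24-fold difference, and 2.39 ± 0.59 (SE) on the ketogenic diet, a 5.23-fold difference. The first was 1.98 without KC888LL and 1.25 without KC872RL, the highest library. Ecel1 is on chromosome 1 at 87147655 to 87156521, minus strand (ENSMUSG00000026247, GRCm38).

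Best3 was about doubled in the knockout on each diet and, as for Ecel1, the knockout libraries differed widely among themselves. Its levels under standard feeding were 2.71, 3.08, 3.33 and 3.57 CPM in wild type and 3.46, 5.89, 7.54 and 8.82 CPM in knockout libraries. Its levels under ketogenic feeding were 3.45, 3.65, 4.32 and 5.33 CPM in wild type and 5.05, 5.53, 10.4 and 11.05 CPM in knockout libraries. On both diets the lowest knockout library fell below the highest wild type library, so the groups overlapped by 1 knockout library each. Its knockout-to-wild-type log2 ratio was 1.01 ± 0.29 (SE) on the standard diet, 1.22 without KC888LL, and 0.93 ± 0.28 (SE) on the ketogenic diet. Best3 lies on chromosome 10 at 116986314 to 117025040, plus strand (ENSMUSG00000020169).

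Otogl, the least abundant of the 9 genes with 20 to 71 counts in a library, was also higher in the knockout. It ranged from 1.44 to 2.23 CPM in wild type and from 2.16 to 4.00 CPM in knockout on the standard diet. KC888LL was the lowest library labelled knockout. With ketogenic feeding the ranges were 1.18 to 2.16 CPM and 2.17 to 3.09 CPM, which did not overlap. The log2 fold change was 0.70 ± 0.24 (SE) on the standard diet, 0.83 without KC888LL, and 0.78 ± 0.24 (SE) on the ketogenic diet. Otogl lies on chromosome 10 at 107760531 to 107912134, minus strand (ENSMUSG00000091455).

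Dnah1 separated knockout from wild type on both diets. Standard-diet libraries held 8.49, 10.2, 10.2 and 10.2 CPM in wild type and 12.6, 15.6, 15.9 and 16.1 CPM in knockout libraries. Ketogenic-diet libraries held 10.8, 10.9, 11.1 and 11.4 CPM in wild type and 11.7, 15.2, 16.5 and 20.7 CPM in knockout libraries. Every library labelled knockout was above every wild type library of its diet. Nearest to wild type were the library labelled knockout KC888LL, at 12.6 CPM, and the knockout library KC916RRL, at 11.7 CPM. The fitted log2 ratio was 0.62 ± 0.14 (SE) on the standard diet, 0.69 without KC888LL, and 0.54 ± 0.13 (SE) on the ketogenic diet. Dnah1 lies on chromosome 14 at 31260375 to 31323896, minus strand (ENSMUSG00000019027). The summed level of 8 ependymal markers, genes of the ciliated cells that line the ventricles, ranged from 15.5 to 37.8 CPM in wild type and 22.1 to 33.7 CPM in knockout on the standard diet, and from 15.4 to 23.5 and 14.9 to 21.0 CPM on the ketogenic diet, with Tmem212 at 0 in some library. These sums overlapped between the genotypes on each diet, and their part in the Dnah1 difference was not tested.

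Syne1, the most abundant of the 9 genes per kilobase of exon, was nearly constant in wild type and fell in separate clusters within the knockout. Its standard-diet levels were 696, 701, 711 and 721 CPM in wild type and 735, 960, 965 and 971 CPM in knockout libraries, the 735 CPM being KC888LL. Its ketogenic-diet levels were 644, 685, 703 and 741 CPM in wild type and 732, 761, 913 and 1046 CPM in knockout libraries. Thus the knockout libraries KC935LL and KC916RRL and the library labelled knockout KC888LL lay close to the wild type range, and the other 5 lay well above it. On the log2 scale the knockout difference was 0.36 ± 0.10 (SE) on the standard diet, 0.44 without KC888LL, and 0.32 ± 0.10 (SE) on the ketogenic diet, where it was 0.21 without KC913RR. Syne1 lies on chromosome 10 at 5020917 to 5551482, minus strand (ENSMUSG00000096054).

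Xpr1 differed by a small amount but tightly. The levels with standard feeding were 149, 154, 160 and 168 CPM in wild type and 173, 182, 188 and 203 CPM in knockout libraries. Those with ketogenic feeding were 150, 153, 154 and 163 CPM in wild type and 165, 178, 187 and 191 CPM in knockout libraries. The groups did not overlap on either diet. The library labelled knockout KC888LL and the knockout library KC916RRL, the lowest of their groups, stood just above wild type. The fitted knockout difference was 0.24 ± 0.06 (SE) on the standard diet, 0.27 without KC888LL, and 0.22 ± 0.06 (SE) on the ketogenic diet, which are 1.18-fold and 1.16-fold differences. Xpr1 lies on chromosome 1 at 155275701 to 155417415, minus strand (ENSMUSG00000026469).

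Dact1 was the gene lowered most in the knockout among the 3 that were lower. In libraries from standard-fed mice it stood at 5.88, 5.91, 6.33 and 7.54 CPM in wild type and 3.27, 3.61, 4.63 and 4.87 CPM in knockout libraries. In libraries from ketogenic-fed mice it stood at 6.04, 6.64, 7.24 and 7.95 CPM in wild type and 2.74, 4.64, 5.16 and 5.99 CPM in knockout libraries. The groups did not overlap on either diet, although KC935LL, at 5.99 CPM, was just under the lowest wild type library. As a log2 fold change, knockout over wild type, this was -0.65 ± 0.20 (SE) on the standard diet, -0.75 without KC888LL, and -0.58 ± 0.19 (SE) on the ketogenic diet, where it was -0.40 without KC913RR. Dact1 lies on chromosome 12 at 71309884 to 71320107, plus strand (ENSMUSG00000044548).

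Colgalt2 and Nfic were lower in the knockout by similar amounts on the 2 diets. Colgalt2 ranged from 10.03 to 12.02 CPM in wild type and 6.47 to 10.3 CPM in knockout on the standard diet, overlapping through KC888LL, and from 10.1 to 13.3 and 8.002 to 9.04 CPM on the ketogenic diet, without overlap. Its log2 fold change was -0.43 ± 0.13 (SE) on each diet, and -0.57 on the standard diet without KC888LL. Nfic ranged from 83.6 to 90.1 CPM in wild type and 71.9 to 79.9 CPM in knockout on the standard diet, and from 85.3 to 89.7 and 68.9 to 83.2 CPM on the ketogenic diet. The Nfic groups therefore did not overlap on either diet although its log2 fold change was the smallest of the 9, -0.18 ± 0.06 (SE) on each diet and -0.20 on the standard diet without KC888LL. Colgalt2 lies on chromosome 1 at 152399830 to 152510695, plus strand (ENSMUSG00000032649), and Nfic on chromosome 10 at 81396186 to 81455635, minus strand (ENSMUSG00000055053).

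**Figure D1:**
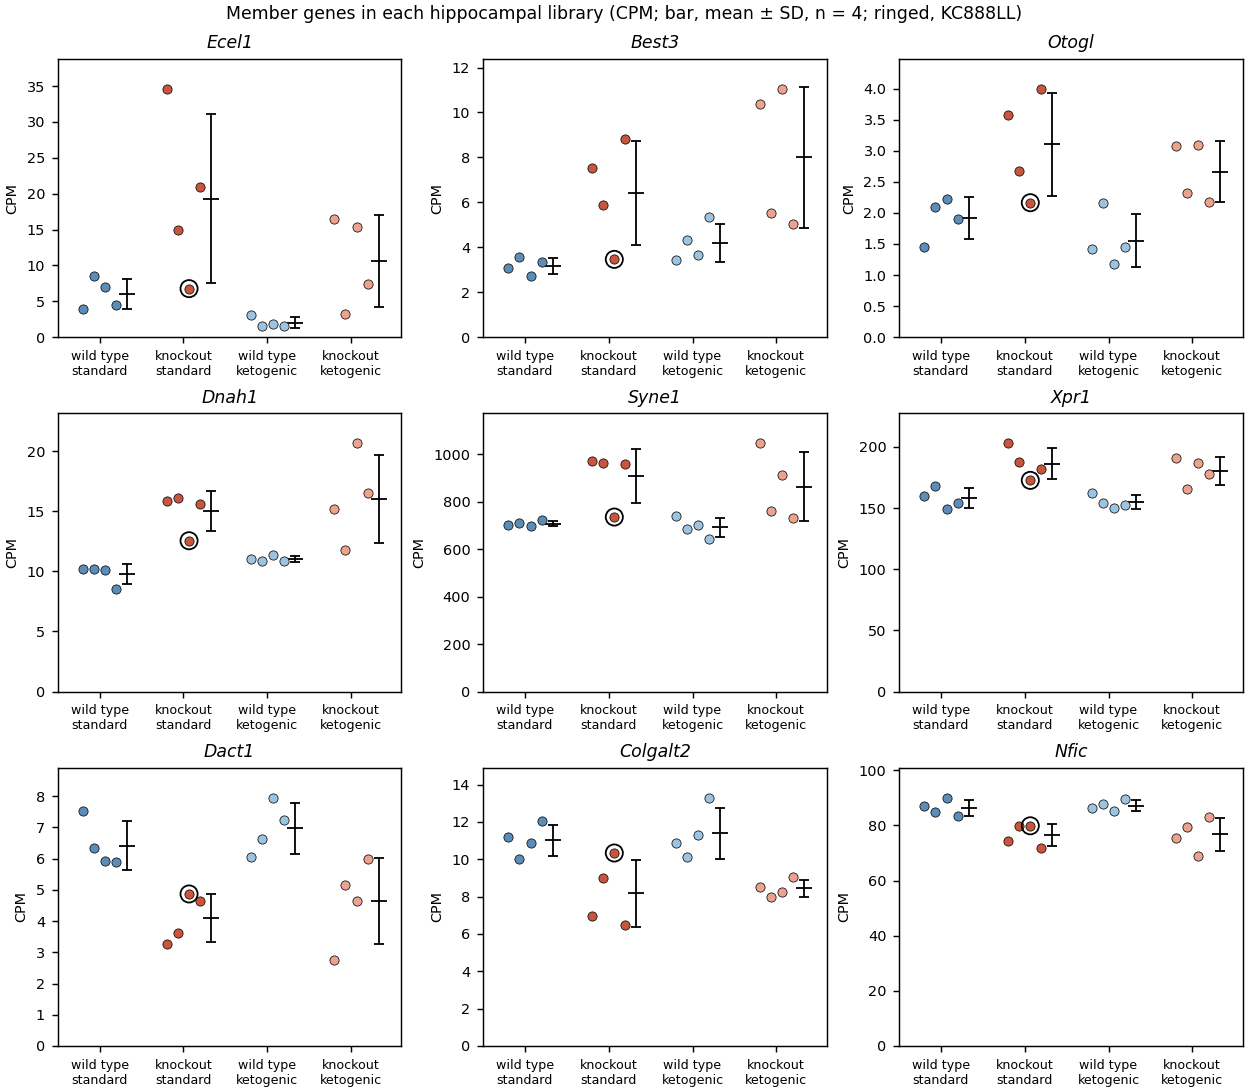
Level of each of the 9 genes (CPM, vertical axes) in the 16 libraries by group. Each point is 1 library and each bar the mean ± SD of 4. Xpr1, Dact1, Dnah1 and Nfic separate the genotypes on both diets, and single knockout libraries reach the wild type range for Ecel1, Best3, Otogl and Colgalt2 on the standard diet or for Best3 and Syne1 on the ketogenic diet.

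Counted together, 5 of the 9 genes had non-overlapping genotype groups on the standard diet, against 5.86% of all tested genes, and 7 of 9 on the ketogenic diet, against 3.98%. On both diets in the same direction the count was 4 of 9, against 0.269%. These contrasts chose the genes, so nothing is read from the counts. The rule that chose them gives no threshold: 32 of 16581 tested genes off chromosome 6 (0.193%) differed with the same sign at an unadjusted p under 0.01 on both diets, and the 9 are among them with 23 others.

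**Figure D2:**
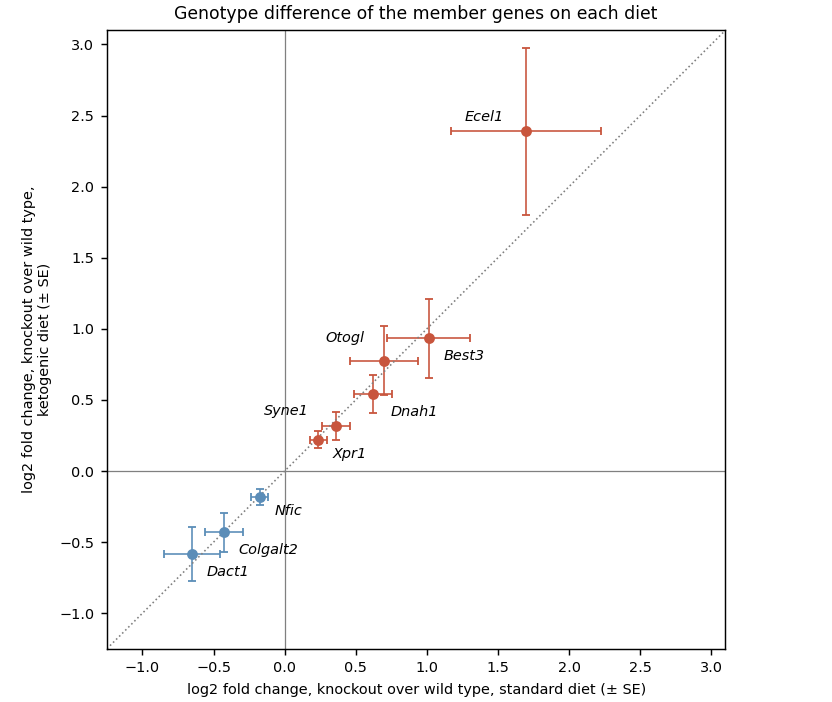
Log2 fold change of knockout over wild type on the standard diet (horizontal axis) and the ketogenic diet (vertical axis) for the 9 genes, with SE bars and a dotted line of equality. Red marks genes higher and blue genes lower in the knockout, and Ecel1 lies farthest from the origin at 1.70 and 2.39.

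The difference between the 2 genotype differences, ketogenic minus standard, is computed from the contrasts of the rule and is given as a value. It was 0.69 ± 0.79 (SE) on the log2 scale for Ecel1, and for the other 8 genes it lay between -0.08 (Best3, ± 0.40) and 0.08 (Otogl, ± 0.34). For Xpr1 and Nfic, the genes with the smallest errors, it was -0.02 ± 0.09 and -0.01 ± 0.08. These errors leave room for changes of some size in Ecel1, Best3 and Otogl.

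The distance of each knockout library from wild type uses the values that chose the genes and is a description. In the knockout group on the standard diet, the library labelled knockout KC888LL was nearest to the wild type mean for 8 of the 9 genes. KC873RR was nearest for Nfic. Over all genes KC888LL was nearest for 43.3%. Among ketogenic-diet knockout libraries KC935LL was nearest for 6 and KC916RRL for 3, against 32.1% and 31.5% of all genes. Farthest from wild type on the standard diet were KC872RL for 4 genes, KC893RL for 4 and KC873RR for 1, and on the ketogenic diet KC913RR for 4, KC934R for 4 and KC916RRL for 1, which was Colgalt2.

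These libraries also differed in Gfap, which encodes the intermediate filament of astrocytes and marks the astrogliosis named in the study's title. Gfap measured 348, 611, 1340 and 2327 CPM in KC888LL, KC893RL, KC873RR and KC872RL, all standard-fed. Among the ketogenic-fed knockouts it stood at 288, 295, 1059 and 2018 CPM in KC916RRL, KC935LL, KC934R and KC913RR, against 294 to 390 CPM in the 8 wild type libraries. Each of the 9 genes was therefore compared with Gfap over the 8 knockout libraries, with exact permutation p-values adjusted over all 17468 other tested genes. The selection rule names no variation within a diet group. All 9 genes did have an edgeR unadjusted p under 0.01 on both diets, however, and that p depends on the spread within groups. The selection is therefore not fully independent of that spread. The pooled r also holds the diet difference in the knockout, which shares its group means with the contrasts of the rule.

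Xpr1 followed Gfap most closely, rising from 165 CPM in KC916RRL, the library lowest in Gfap, to 203 CPM in KC872RL, the highest. Pearson's r was 0.93 (exact permutation p = 0.000198) and Spearman's rho 0.98 (exact permutation p = 0.000397, n = 8), with an adjusted p of 0.112 for r. Without KC916RRL and KC872RL, the libraries farthest from the median Gfap level, r was 0.95 (n = 6). Dact1 went the other way, with r = -0.91 (exact permutation p = 0.00109), rho = -0.93 (exact permutation p = 0.00223), an adjusted p of 0.128, and r = -0.90 without those 2 libraries. Dact1 was lowest, at 2.74 and 3.27 CPM, in the 2 libraries richest in Gfap, KC913RR and KC872RL.

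Ecel1 gave r = 0.84 (exact permutation p = 0.00935) and rho = 0.81 (exact permutation p = 0.0218), with an adjusted p of 0.213. Without the same 2 libraries its r was 0.74 with an exact permutation p of 0.115, so the relation of Ecel1 to Gfap rests in part on them. The knockout values of Syne1 fell in clusters of 3 and 5 libraries, so no pooled r is given for Syne1 over these libraries. It is also left out of the counts that follow, a choice made after its values were seen. The 3 libraries of its lower cluster, KC888LL, KC916RRL and KC935LL, were also the lowest in Gfap, at 348, 288 and 295 CPM. The other 5 genes had an exact permutation p above 0.05: r was 0.66 for Otogl (p = 0.0815), 0.66 for Best3 (p = 0.0791), 0.48 for Dnah1 (p = 0.236), -0.50 for Nfic (p = 0.201) and -0.33 for Colgalt2 (p = 0.415).

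In all, 3 of the 8 genes had an exact permutation p under 0.05, against 14% of all genes, and the median absolute r was 0.66 for the 8 against 0.37 for all genes. These pooled values hold the diet difference in the knockout, which is not independent of the rule, so nothing is read from them. No r passed adjustment over all genes (0 of 17468 genes did), where the smallest p that the permutations can give is 2.48e-05. Centring on the mean of each diet group and permuting within it takes that difference out. Then r was 0.85 for Ecel1 (exact permutation p = 0.0226), 0.92 for Xpr1 (p = 0.00521) and -0.91 for Dact1 (p = 0.00347). Centred in the same way, r was 0.76 for Best3 (exact permutation p = 0.0868) and 0.64 for Otogl (p = 0.0938). For Dnah1, Nfic and Colgalt2 it was 0.53, -0.51 and -0.31 (exact permutation p = 0.243, 0.262 and 0.458). By that measure 14.1% of all genes had an exact permutation p under 0.05 and 0 passed adjustment. Without the library labelled knockout KC888LL (n = 7), r was 0.82 for Ecel1, with an exact permutation p of 0.0190 for r and 0.0663 for rho, 0.91 for Xpr1 and -0.92 for Dact1, and that of Colgalt2 was -0.14. Over the 8 wild type libraries, where Gfap spanned little, 0 of the 9 had an exact permutation p under 0.05, against 4.88% of all genes. Microglial markers, summed over 8 genes, were at 475 and 448 CPM in KC872RL and KC873RR and from 194 to 246 CPM in the other 14 libraries, and their part in these relations was not tested.

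**Figure D3:**
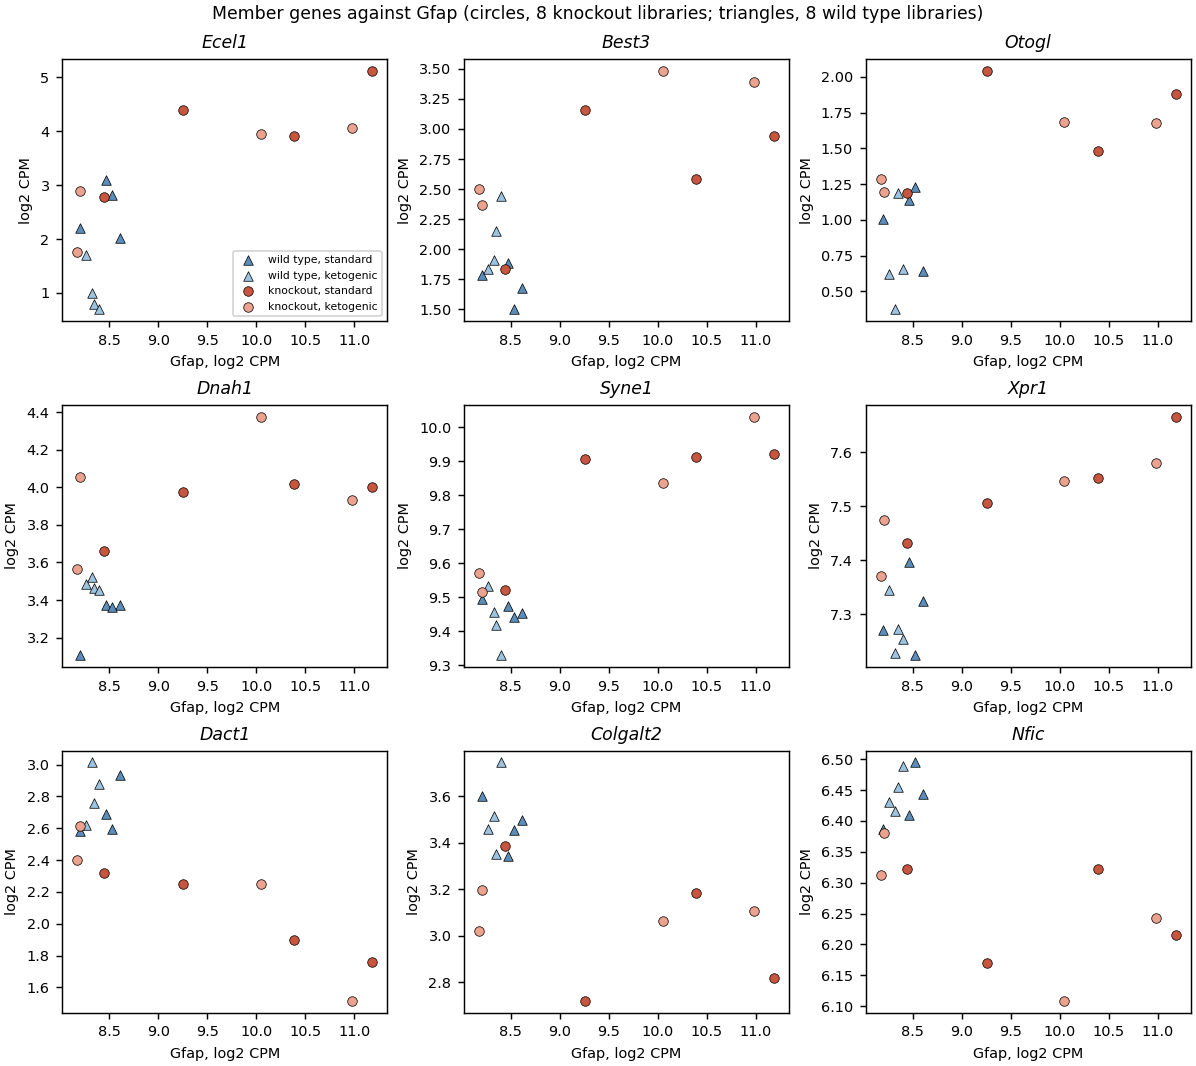
Each of the 9 genes (log2 CPM, vertical axes) against Gfap (log2 CPM, horizontal axes), with circles for the 8 knockout and triangles for the 8 wild type libraries, dark for standard and light for ketogenic diet. Xpr1 climbs and Dact1 falls along the knockout libraries, while the wild type libraries sit together at low Gfap.

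Diet averaged over the genotypes has weights orthogonal to those of the contrasts that chose the genes, and it was tested for each. Such weights give independent estimates only where the groups have equal spread. The SD as a share of the mean was wider in the knockout on both diets for 7 of the 9 genes, Ecel1 among them, so independence is not complete. By edgeR's quasi-likelihood test 0 of the 9 genes was called, against 157 of 17469 (0.899%) over all genes, where called means an adjusted p under 0.05. Ecel1 alone among the 9 had an unadjusted p under 0.05, against 14.4% of all genes. Its log2 fold change, ketogenic over standard, was -1.20 ± 0.40 (SE), with a 95% interval of -2.05 to -0.35 and an edgeR adjusted p of 0.190, and adjusted p-values from 0.0600 (DESeq2) to 0.346 over 20 alternatives. Within each genotype the diet values of Ecel1 share group means with the contrasts that chose it, so they are given as a description. In wild type the Ecel1 diet groups did not overlap, at 3.96 to 8.48 CPM on the standard and 1.503 to 3.15 CPM on the ketogenic diet, a log2 fold change of -1.54 ± 0.61 (SE). In the knockout they overlapped, at 6.76 to 34.6 and 3.29 to 16.5 CPM, with -0.85 ± 0.50 (SE).

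For the other 8 genes the 95% intervals of the diet difference included 0. Best3 had the widest, from -0.06 to 0.79 around 0.36 (edgeR, adjusted p = 0.422), followed by Otogl, from -0.61 to 0.104 around -0.25 (edgeR, adjusted p = 0.514). Dnah1 lay at 0.14 (-0.06 to 0.33), Dact1 at 0.15 (-0.14 to 0.44) and Colgalt2 at 0.05 (-0.15 to 0.25). The intervals were narrower for Xpr1 (-0.13 to 0.05), Nfic (-0.08 to 0.096) and Syne1 (-0.20 to 0.099), so diet differences beyond those bounds are outside the intervals. Only Ecel1 and Dnah1 had diet groups that did not overlap in wild type, against 4.88% of all genes, and none did in the knockout, against 6.39%. Diet within a single genotype shares group means with the contrasts of the rule, so nothing is read from these counts. All 8 oligodendrocyte markers were called lower on the ketogenic diet in the same test, with sums of 4045 to 6257 CPM in wild type on the standard and 3341 to 4232 CPM on the ketogenic diet, and their part in the Ecel1 value was not tested.

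**Figure D4:**
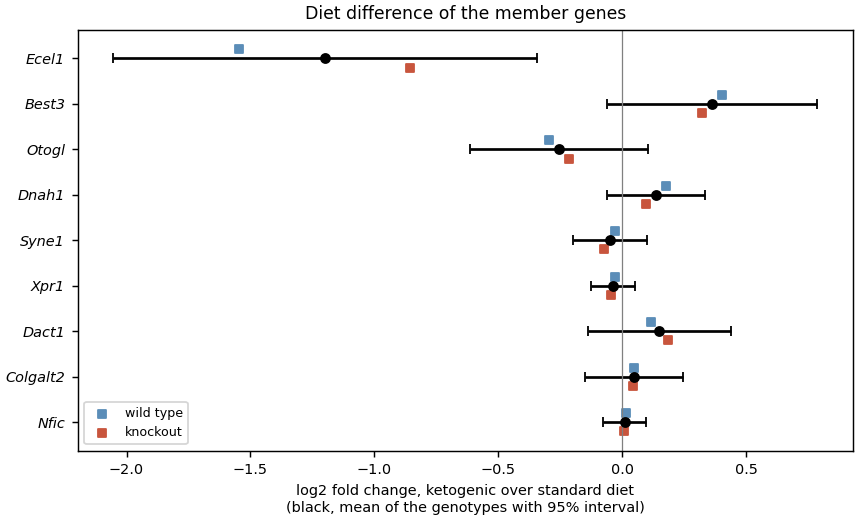
Log2 fold change of ketogenic over standard diet for the 9 genes, averaged over the genotypes, with bars for the 95% interval from edgeR. The bar of Ecel1, around -1.20, does not reach 0, and the other 8 bars do.

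The levels of the 9 genes spanned a wide range. Per kilobase of exon, the mean in wild type on the standard diet was 17.5 CPM for Syne1, 13.03 for Nfic and 8.84 for Xpr1. It was 2.60 for Colgalt2, 1.71 for Ecel1, 1.71 for Dact1, 1.17 for Best3, 0.750 for Dnah1 and 0.218 CPM per kilobase for Otogl. Ecel1 and Dact1 are neighbours in that order and did not differ beyond their spread.

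Although all 9 genes lie off chromosome 6, 3 are on chromosome 1 and 4 on chromosome 10. The closest pair was Colgalt2 and Xpr1, 2.77 Mb apart, followed by Otogl and Best3 at 9.07 Mb. Nfic and Otogl were 26.3 Mb apart, Ecel1 and Colgalt2 65.2 Mb and Syne1 and Nfic 75.8 Mb. Antisense transcripts are annotated at Dnah1 (Gm35823) and Nfic (Gm16104), and without known strand use their reads cannot be told apart from those of the gene. Annotated genes that overlap any of the 9 held at most 16 counts in a library.

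The same pattern was looked for in the genes beside the 9. Among the 10 nearest tested genes on each side of each, 180 in all, 16 were higher and 14 lower in the knockout at an unadjusted p under 0.05 on the standard diet (16.7%, against 14.3% of all genes, 7.64% higher and 6.69% lower). With the ketogenic diet, 9 were higher and 3 lower (6.67%, against 9.22%, 5.24% higher and 3.97% lower). The count with the same sign on both diets was 0 of 180, against 1.6% of all genes. Without KC888LL it was 5 of 180 (2.78%), the same share as over all genes.

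Related genes were examined in 10 lists, one or more for the role of each of the 9. Of 98 listed genes 84 were tested, and edgeR called 0 of them between genotypes on either diet, against 0.00572% of all genes on the standard and 0.0172% on the ketogenic diet. At an unadjusted p under 0.05, 10 were higher and 9 lower on the standard diet (22.6%, against 14.3% of all genes), and 8 were higher and 3 lower on the ketogenic diet (13.1%, against 9.22%).

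Neuronal injury genes, the company in which Ecel1 is known to be induced, made up 6 of the 10 higher ones on the standard diet and 4 of the 8 on the ketogenic diet. All 8 tested were above wild type on both diets, with 6 at an unadjusted p under 0.05 on the standard and 4 on the ketogenic diet (7.64% and 5.24% of all genes were higher at that threshold), and medians of 0.46 and 0.40 on the log2 scale against 0.004 and 0.003 for all genes. The 7 tested reactive astrocyte markers were also above wild type on both diets, with medians of 1.11 and 1.46, and 6 of 8 microglial markers were higher at that threshold on the standard diet and 0 on the ketogenic diet. Their part in the list's values was not tested. Jun, an AP-1 transcription factor subunit, had the smallest p of all related genes on both diets, with 0.40 ± 0.09 (SE, edgeR adjusted p = 0.192) and 0.29 ± 0.09 (SE, edgeR adjusted p = 0.417). Without KC888LL, edgeR called 8 related genes on the standard diet, against 5.73% of all genes: Jun, Klf6, Atf3 and Npy of this list, and P4ha1, Plod2, Pdgfb and Prickle2. Npy and Atf3, a neuropeptide and a stress-induced transcription factor, then had log2 fold changes of 2.48 and 2.96. With all libraries, theirs on the standard diet were 2.16 ± 0.65 (SE, edgeR adjusted p = 0.207) and 2.60 ± 0.85 (SE, edgeR adjusted p = 0.217). Under ketogenic feeding, with all libraries, theirs were 1.45 ± 0.64 (SE, edgeR adjusted p = 0.531) and 0.55 ± 0.84 (SE, edgeR adjusted p = 0.870). Of the 5 tested neprilysin-family relatives of Ecel1, 1 was higher at an unadjusted p under 0.05 on the standard and 2 on the ketogenic diet, and 0 were lower. Phex was higher on both diets, by 1.03 ± 0.41 (SE, edgeR adjusted p = 0.270) and 1.43 ± 0.46 (SE, edgeR adjusted p = 0.417), at a mean of only 0.437 CPM.

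Relatives of Dnah1, Nfic and Syne1 were counted against the 14.3% and 9.22% of all genes at an unadjusted p under 0.05 on the standard and ketogenic diets. Of 14 tested axonemal dynein chains 9 were above and 5 below wild type on the standard diet, with 0 at an unadjusted p under 0.05. On the ketogenic diet 1 was above and 13 below, with 1 lower at that threshold and a median of -0.23 on the log2 scale. On that diet 6 of 7 tested ependymal markers (median -0.33) and all 8 choroid plexus markers (median -2.55) were below wild type, 0 of them at that threshold. Choroid plexus sums on that diet were 31.2, 36.8, 41.8 and 1054 CPM in wild type and 32.6 to 54.4 CPM in knockout. The high wild type sum was that of 1 library, KC844RR, and the remaining wild type sums were not above the knockout range. The part of these markers in the dynein values was not tested. The other 3 nuclear factor I genes, Nfia, Nfib and Nfix, had 0 at that threshold on either diet, with log2 fold changes from -0.17 to 0.08. Among 11 nuclear envelope partners of Syne1, 1 was higher at that threshold on the standard diet and 0 on the ketogenic diet.

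Of 18 genes of dishevelled and Wnt signalling around Dact1, 13 were below wild type on the standard diet, 5 of them at an unadjusted p under 0.05, and 12 on the ketogenic diet, 1 of them at that threshold. For this list and those that follow, the background with standard feeding was 6.69% of all genes lower and 7.64% higher at that threshold. With ketogenic feeding the background was 3.97% lower and 5.24% higher. The 8 collagen-modifying genes around Colgalt2 held 2 higher and 1 lower at that threshold on the standard diet, the lower one being P4ha1, a prolyl hydroxylase subunit, at -0.23 ± 0.07 (SE, edgeR adjusted p = 0.204), and at -0.31 without KC888LL (edgeR adjusted p = 0.0111). On the ketogenic diet they held 1 higher and 0 lower. The 9 phosphate genes around Xpr1 held 1 lower on the standard and 1 higher on the ketogenic diet, and the 6 chloride channel genes around Best3 held 1 lower on each. Of 2 tested inner ear matrix genes around Otogl, 1 was lower on the standard diet at that threshold and 0 on the ketogenic diet. Averaged over genotypes, diet called 2 of the 84 related genes (0.899% of all genes), both lower on the ketogenic diet: Ttyh2, a tweety-family gene, at -0.46 ± 0.07 (SE, edgeR adjusted p = 0.00529), and Nkd1, a Wnt inhibitor, at -0.40 ± 0.09 (SE, edgeR adjusted p = 0.0441). The 8 oligodendrocyte markers, all called lower in that test, had a median of -0.70, and their part in these calls was not tested.

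For each of the 9, the tested gene off chromosome 6 with the most similar profile over the 16 libraries was found by the root mean square difference of standardised log2 CPM, which was 1.36 to 1.38 for the median of 14627 candidates. The nearest was 1700001L05Rik for Syne1 (0.262), Matn2 for Best3 (0.322), Fndc3a for Xpr1 (0.361) and Sdc2 for Ecel1 (0.405). It was Dusp6, a MAP kinase phosphatase, for Colgalt2 (0.433), Homer2, a postsynaptic scaffold gene, for Dact1 (0.434), Ston2 for Otogl (0.459), Atxn7 for Nfic (0.467) and Bbs4, a gene of primary cilia, for Dnah1 (0.501). Among the 9 themselves, Xpr1 and Syne1 were the most similar pair (0.465), and Colgalt2 and Nfic the most similar among the lower genes (0.567). All these profiles hold the genotype differences that chose the genes, and each nearest gene is the best of many candidates, so the values are a description.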

How the data were processed

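Gene-level RNA was measured in 16 hippocampal libraries, 4 per group. The authors deposited raw counts per gene; whole numbers with differing totals were seen. The submitters' processing notes name mm10 and DESeq2 without their role. The aligner, counter, annotation and strand use are not given in the sources used here. Columns name a genotype, diet and animal tag, so libraries were mapped to groups and are named by tag. Nothing in the labels says that the samples of a group were prepared separately, so p-values measure the spread between these samples.

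Counts were fitted with edgeR 4.0.16 in R 4.3.3 (filterByExpr, TMM, robust quasi-likelihood, 1 coefficient per group, 12 residual degrees of freedom), and p-values were adjusted by Benjamini-Hochberg over 17469 genes. The filter kept at least 99.8% of each library's counts. CPM used effective library sizes, and log2 CPM a prior count of 2. The steps were tested on simulated counts. Correlations used exact two-sided permutation, adjusted over all tested genes in place of the 9 alone. Positions are those of GENCODE M21 on GRCm38.

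The 9 genes and all lists were chosen with earlier results of these data known. Genes were named by rule: the 9, Kcna1, Gfap, the nearest profile of each of the 9 (mean of at least 1 CPM), and of related genes those called or otherwise the 2 of smallest p in each genotype contrast. The related genes called without KC888LL, the other nuclear factor I genes and the genes annotated at the members' loci were named after their values were seen. Alternatives were DESeq2 1.42.0, its size factors in edgeR, Xist as a covariate, other filters, only the libraries compared, each library left out, a prior count of 0.5, and 5 or 20 neighbours. The runs over wild type libraries and without KC888LL for Gfap and for neighbours were chosen after seeing the data.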

Additional observations from a re-analysis of the deposited data

Results flagged for a closer look

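Of 44 sets of 4 libraries examined (11 genes in 4 groups), 5 held a library far from the other 3, and chance alone gives about 1 in 20. In the knockout on the standard diet, the library labelled knockout KC888LL stood apart in 3 genes: Syne1 at 735 CPM, Dnah1 at 12.6 CPM and Kcna1 at 82.0 CPM. In wild type on the standard diet, KC900RLL stood apart in Dnah1 at 8.49 CPM and KC894RLL in Kcna1 at 129.7 CPM. The standard-diet log2 fold changes of Syne1 and Dnah1 were 0.36 and 0.62 with KC888LL and 0.44 and 0.69 without it. Without KC900RLL that of Dnah1 was 0.56.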

How the results depend on the processing

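The number of genes called between genotypes on the standard diet was 1, and became 169 with DESeq2, 2 with Xist as a covariate, 2 with at least 10 counts in every library, 18 without a filter and 0 with only the 8 libraries compared; leaving out 1 library gave 0 to 1016, the latter without KC888LL. On the ketogenic diet it was 3, and became 45 with DESeq2 and 11 without a filter; leaving out 1 library gave 1 to 13, the latter without KC916RRL. For diet averaged over genotypes it was 157, and became 432 with DESeq2 and 74 with Xist as a covariate; leaving out 1 library gave 51 (without KC890RL) to 457 (without KC888LL). Of the 9 genes, 0 was called for diet in the 20 alternatives run. Their 18 genotype differences kept their sign in those alternatives; the selection fixes part of that. The diet values of Colgalt2 and Nfic, near 0, did not keep theirs. Over the wild type libraries 0 of 9 rather than 4 (Syne1 counted) had an exact permutation p under 0.05 against Gfap. There r changed sign for Best3 (-0.29), Dact1 (0.29) and Nfic (0.51). For Syne1, whose pooled r over the knockout libraries is not given, r was -0.31. Neighbours with the same sign on both diets numbered 0, but 1 with 20 on each side and 5 without KC888LL. Related genes called on the standard diet numbered 0, and 0 to 8 when 1 library was left out, the 8 without KC888LL. The cause of these shifts was not tested. No paired analysis was possible because the columns carry no replicate numbers. Otogl had the fewest counts of the 9 genes, 20 to 71 in a library.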
